A study of Mus musculus with 6 samples.

Results

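The genes examined here were followed in regulatory T cells treated with prostaglandin E2 (PGE2), a lipid mediator that acts through the receptors EP1 to EP4. These 10 genes encode the negative limb of the circadian clock and the factors that read it out: Per1, Per2, Per3, Cry1, Cry2, Nr1d1, Nr1d2, Dbp, Nfil3 and Bhlhe40. They were chosen by symbol from the 47643 annotated gene entries of the deposited tables, and each was found once in all 6 libraries. Their level is given in FPKM, which counts fragments per kilobase after scaling for library size, with read coverage as a check. There were 3 libraries of cells given 100 nM PGE2 for 6 h and 3 of cells given vehicle (DMSO) over the same time. All 6 were Foxp3+ induced regulatory T cells (iTreg) from spleens of C57BL/6 mice of the Foxp3-DTR/EGFP genotype, in which a diphtheria toxin receptor and a green fluorescent protein are made where the regulatory T cell factor Foxp3 is. Both groups had first spent 2 days on plate-bound antibody to CD3 with soluble antibody to CD28 and TGF-β, and both were sorted on the reporter after treatment. No label ties a replicate to its own animal or culture, and each p-value therefore covers the spread among these libraries alone, which may be technical. The clock time of harvest is not given either.

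In the mammalian clock, the activators BMAL1 (gene Arntl) and CLOCK bind E-box sequences and switch on the Per, Cry, Nr1d and Dbp genes. PER and CRY proteins then repress that activator pair, and the REV-ERB proteins made from Nr1d1 and Nr1d2 repress Arntl and Nfil3. Dbp encodes an activator of the PAR-bZIP family and Nfil3 a related bZIP repressor, and both bind D-box sequences. Per1 is also a textbook target of cAMP signalling through CREB, the pathway downstream of EP2 and EP4. In T cells Bhlhe40 and Nfil3 are further known as regulators of cytokine genes.

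The stretches before the start sites of Per3, Per1 and Dbp are shown because Per3 holds the letters of the D-box that Dbp and Nfil3 proteins bind, Per1 holds E-box and cAMP response letters, and Dbp was the gene with the smallest p among the 10. They come from RefSeq on GRCm38.p6, cover the 250 bases before each start and run 5′ to 3′ on the strand of the gene. Capitals mark the E-box CACGTG, the D-box TTANGTAA and the core TGACG of the cAMP response element (CRE), each on either strand. RefSeq gives Per1 a pair of start sites, both shown.
Per3, chr4:151044666-151044915, minus strand: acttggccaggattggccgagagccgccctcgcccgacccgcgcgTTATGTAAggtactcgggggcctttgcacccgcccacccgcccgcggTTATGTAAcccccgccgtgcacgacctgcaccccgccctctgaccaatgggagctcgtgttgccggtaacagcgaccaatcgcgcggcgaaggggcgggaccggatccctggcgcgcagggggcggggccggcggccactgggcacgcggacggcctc
Per1, first start, chr11:69098699-69098948, plus strand: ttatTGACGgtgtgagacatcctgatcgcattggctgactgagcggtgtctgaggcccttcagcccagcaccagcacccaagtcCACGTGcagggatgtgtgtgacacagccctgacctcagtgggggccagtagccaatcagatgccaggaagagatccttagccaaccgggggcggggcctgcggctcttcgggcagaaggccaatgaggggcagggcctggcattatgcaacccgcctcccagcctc
Per1, second start, chr11:69099902-69100151, plus strand: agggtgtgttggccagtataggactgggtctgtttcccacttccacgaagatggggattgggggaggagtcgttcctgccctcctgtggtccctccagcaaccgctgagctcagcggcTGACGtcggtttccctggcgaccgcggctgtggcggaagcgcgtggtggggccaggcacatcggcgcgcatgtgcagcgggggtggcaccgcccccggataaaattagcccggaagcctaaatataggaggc
Dbp, chr7:45704997-45705246, plus strand: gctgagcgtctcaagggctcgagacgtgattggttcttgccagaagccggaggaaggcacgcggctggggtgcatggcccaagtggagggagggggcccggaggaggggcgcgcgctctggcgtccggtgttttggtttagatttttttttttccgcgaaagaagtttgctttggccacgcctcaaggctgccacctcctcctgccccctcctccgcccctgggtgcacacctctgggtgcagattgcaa
Per3 held 2 copies of the D-box, TTATGTAA, beginning at positions -205 and -158 relative to the start. The first Per1 stretch held an E-box at -166 and a CRE core at -246, and the second a CRE core at -132. The Dbp stretch held none of these letters, which says only that they are not in this window. Of the 10 genes, 8 were in the RefSeq table (not Per2 and Bhlhe40), with 9 windows in all. The E-box was in 2 of these 9 windows (1 each of Per1 and Cry1), against 6.02% of all 32851 windows of the same length. The D-box was in 1 of the 9 (Per3), against 2.06%. The CRE core was in 5 of the 9 (2 of Per1 and 1 each of Cry1, Cry2 and Nfil3), against 17.8% of windows. The full CRE, TGACGTCA, which contains the core, was in 0 of the 9, against 1.55% of windows. The core AGGTCA of the element bound by REV-ERB and ROR proteins was in 3 of the 9 (1 each of Per1, Nr1d2 and Nfil3), against 14%. A match is a description of the letters and not a measured binding site.

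On the FPKM scale, which is per length, the repressors Bhlhe40 and Nfil3 were the most abundant of the 10 transcripts in both groups and Nr1d1 the least. With PGE2 the mean levels ran from Bhlhe40 at 56.0 ± 9.18 FPKM (SD, n = 3) through Nfil3 at 30.3 ± 3.52 and Cry1 at 12.2 ± 0.510 to Per1 at 8.15 ± 1.88 and Dbp at 7.25 ± 0.688 FPKM. With vehicle the order began in the same way, with Bhlhe40 at 48.7 ± 9.40, Nfil3 at 25.2 ± 2.92 and Cry1 at 12.8 ± 0.367 FPKM, but Dbp at 10.5 ± 1.56 stood above Per1 at 6.38 ± 1.67 FPKM. The libraries of Per1 and Dbp overlapped with PGE2 and were apart with vehicle. Nr1d2 and Cry2 followed, at 3.08 ± 0.394 and 2.83 ± 0.391 FPKM with PGE2 and at 4.01 ± 0.470 and 3.71 ± 0.289 FPKM with vehicle, and these neighbours overlapped in both groups. By their annotated entries Per3 and Per2 lay under 2 FPKM in every library, and overlapped each other with PGE2 but not with vehicle. With vehicle Per1 also overlapped Nr1d2, and the annotated entry of Per3 overlapped that of Nr1d1. Summed over the loci assembled along each gene, Per3 averaged 3.05 FPKM with PGE2 and 2.67 FPKM with vehicle. Per2 summed in this way averaged 2.36 FPKM with PGE2 and 2.01 FPKM with vehicle. Nr1d1 averaged 0.304 ± 0.0527 FPKM with PGE2 and 0.673 ± 0.198 FPKM with vehicle.

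**Figure D1:**
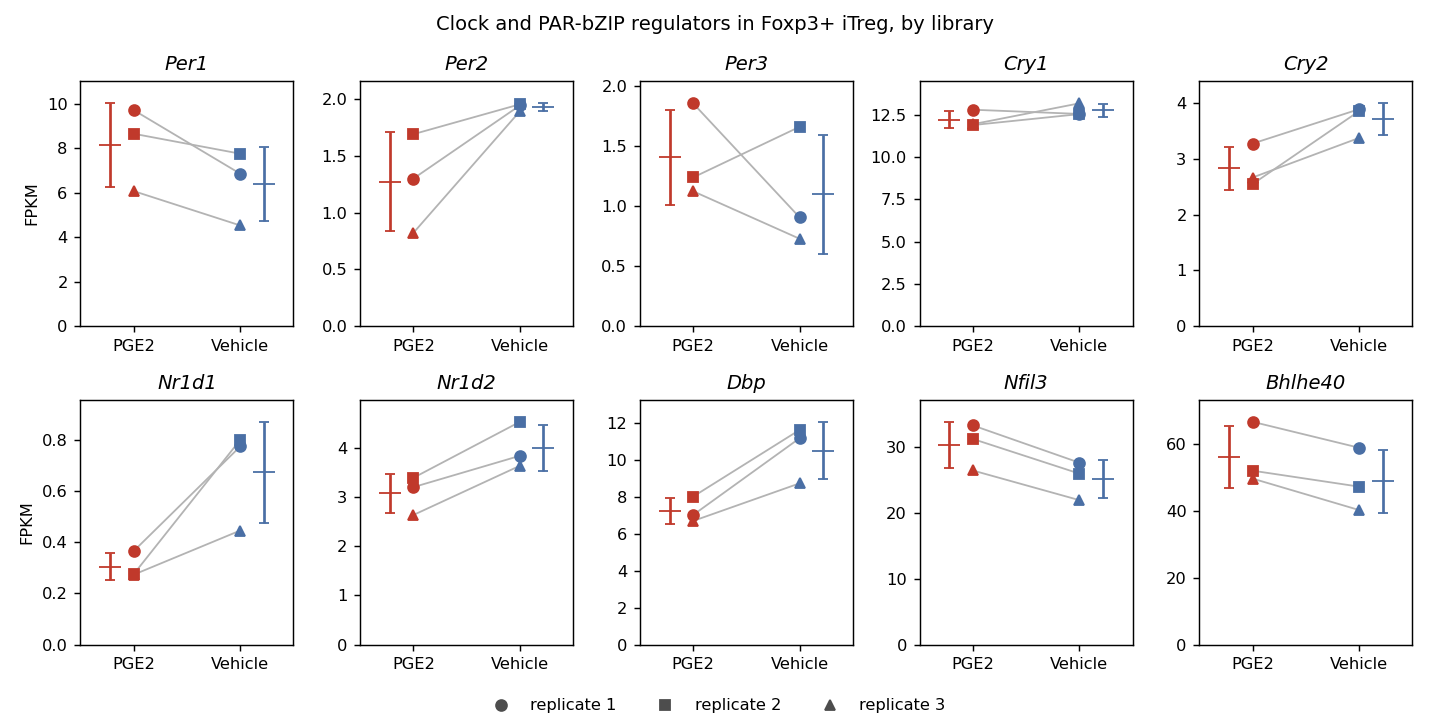
Level of each of the 10 genes in every library (y axis, FPKM of the annotated entry, from 0) with PGE2 on the left and vehicle on the right. Symbols mark the replicate number, grey lines join libraries of the same number, and the horizontal marks with bars give the mean and SD of 3 libraries. Per2, Cry2, Nr1d1, Nr1d2 and Dbp lie lower in every PGE2 library than in any vehicle library, whereas Nfil3, Bhlhe40 and Per1 are higher with PGE2 within each replicate number but overlap between groups.

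The comparison of the groups asks whether 6 h of PGE2 altered the clock transcripts of Foxp3+ iTreg. Of the 10 genes, 9 averaged at least 1 FPKM over the 6 libraries and were tested among 12113 genes on the log2(FPKM + 1) scale, which understates changes of low genes. By limma 0 of the 9 passed an adjusted p of 0.05, against 0.809% of all tested genes. At an unadjusted p under 0.05, 4 of the 9 were lower with PGE2 (Per2, Cry2, Nr1d2 and Dbp), against 7.59% of tested genes, and 0 were higher, against 5.46%. For the same 4 genes every PGE2 library was below every vehicle library, as for 11.9% of tested genes, while the reverse held for 0 of the 9, against 7.81% of tested genes. The same 4 were lower with PGE2 within all 3 replicate numbers, against 24.5% of tested genes, which their lack of overlap already fixes. Another 3 were higher within all 3 replicate numbers (Per1, Nfil3 and Bhlhe40), against 17.7%. The median log2 change of the 9 was -0.06 beside -0.03 for all tested genes, and the median size of a change without regard to sign was 0.30 beside 0.12. Of the 9 log2 changes, 5 were below 0 and 4 above it. Per2 counts among the lower genes through its annotated entry alone, as shown with its values. The replicate numbers in the titles were taken as pairs, which no label states. PGE2 replicate 1 was more like vehicle replicate 2 than vehicle replicate 1 in its deviations from the group mean (correlation 0.271 and 0.227). With the replicate number as a block 1 of the 9, Dbp, passed, against 3.26% of tested genes in either direction and 1.49% as lower.

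**Figure D2:**
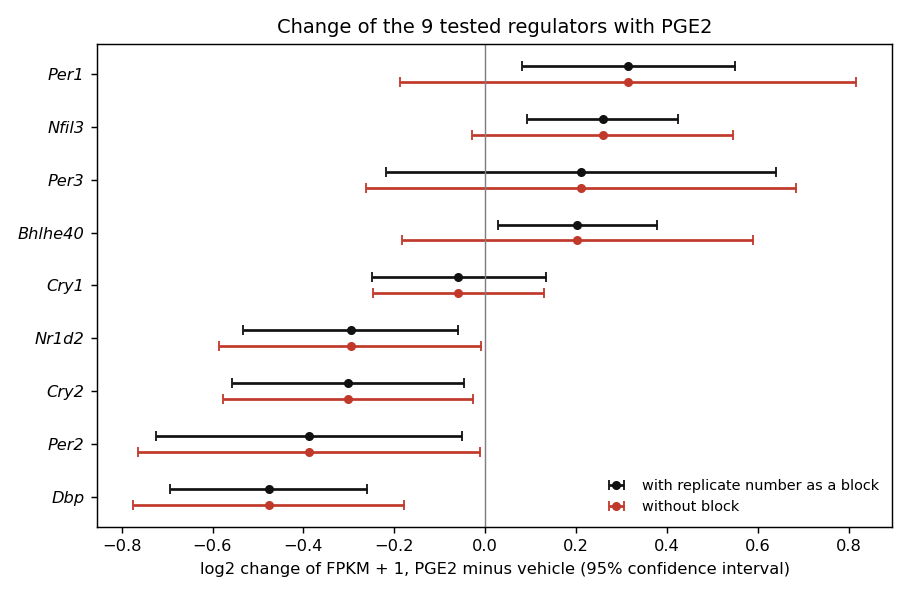
Log2 change of FPKM + 1, PGE2 minus vehicle (x axis), for the 9 tested genes, with 95% confidence intervals from limma without a block and with the replicate number as a block. Intervals that leave out 0 without the block belong to Dbp, Per2, Cry2 and Nr1d2; these intervals are not adjusted for the number of genes tested, and with the block the intervals of Per1, Nfil3 and Bhlhe40 leave out 0 as well.

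Among the period genes, which encode the PER repressors, 0 of 3 passed the test, Per1 was higher with PGE2 in each same-numbered pair, and the direction of Per2 depended on how its reads had been assembled. Per1 (ENSMUSG00000020893.17, chr11:69095217-69109960 in the mm10 coordinates of the files) had 9.72, 8.66 and 6.08 FPKM in PGE2 replicates 1, 2 and 3, against 6.86, 7.76 and 4.53 FPKM in vehicle replicates 1, 2 and 3. The groups overlapped, replicate 3 was the lowest in both, and PGE2 was the higher of each same-numbered pair. The log2 change was 0.32 (SE 0.21, 95% interval -0.19 to 0.82, adjusted p = 0.61 with limma), and with the block the interval narrowed to 0.08 to 0.55 (adjusted p = 0.15). Per2 (ENSMUSG00000055866.9, chr1:91415982-91459324) had 1.30, 1.69 and 0.821 FPKM with PGE2, against 1.95, 1.96 and 1.895 FPKM with vehicle. The vehicle libraries lay close together, the PGE2 libraries were spread out, and all 3 of them were lower. The log2 change was -0.39 (SE 0.16, 95% interval -0.76 to -0.01, adjusted p = 0.37), and -0.62 with a pseudocount of 0.1. Coverage of the same entry, scaled to the depth of each library, was lower as well, at 1.30, 1.501 and 0.821 with PGE2 and 1.67, 1.78 and 1.66 with vehicle. In PGE2 replicates 1 and 3, however, the reads along Per2 had been assembled as 2 and 4 separate loci, and the annotated entry held 43.4% and 35.5% of their summed FPKM, where in the other 4 libraries there was 1 locus and the entry held at least 93.4%. Summed over the assembled loci, Per2 had 2.997, 1.76 and 2.31 FPKM with PGE2, against 1.95, 2.09 and 1.99 FPKM with vehicle. On that measure the groups overlapped and the difference turned to 0.14 on the log2 scale, so the lower level of Per2 with PGE2 rests on the annotated entry (values of loci of unequal length add only roughly). Per3 (ENSMUSG00000028957.12, chr4:151003652-151044665) had 1.86, 1.24 and 1.13 FPKM with PGE2 and 0.906, 1.66 and 0.728 FPKM with vehicle. By annotated entries it was the least abundant period gene with vehicle. The groups of Per3 overlapped and the direction differed between replicate numbers (log2 change 0.21, SE 0.20, adjusted p = 0.74). Per3 lies within the annotated span of Camta1 on the same strand, and its value was 20.9% to 87.9% of the assembled loci there, so its level is uncertain. Summed over those loci, Per3 averaged 3.05 ± 0.841 FPKM with PGE2 and 2.67 ± 0.709 FPKM with vehicle, and the groups overlapped. On that measure Per2 averaged 2.01 ± 0.075 FPKM with vehicle, below Per3.

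The cryptochromes, the partners of PER in repression, did not pass the test; the groups overlapped for Cry1 and not for Cry2. Cry1 (ENSMUSG00000020038.9, chr10:85131702-85185054) was the steadiest of the 10 genes over the PGE2 libraries, at 12.8, 11.9 and 11.96 FPKM with PGE2, against 12.6, 12.6 and 13.2 FPKM with vehicle. PGE2 replicate 1 lay above 2 of the vehicle libraries, and the log2 change was -0.06 (SE 0.08, 95% interval -0.25 to 0.13, adjusted p = 0.85). Cry2 (ENSMUSG00000068742.11, chr2:92403646-92434043) had 3.28, 2.55 and 2.67 FPKM with PGE2, against 3.90, 3.86 and 3.38 FPKM with vehicle. PGE2 replicate 1 lay just under vehicle replicate 3, the nearest libraries of the groups. The log2 change of Cry2 was -0.30 (SE 0.12, adjusted p = 0.34).

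Both REV-ERB genes, whose proteins are haem-binding nuclear receptors that repress the activator limb, had their 3 PGE2 values below their 3 vehicle values. Nr1d1 (ENSMUSG00000020889.11, chr11:98767932-98775333) had 0.365, 0.275 and 0.273 FPKM with PGE2, against 0.774, 0.7998 and 0.446 FPKM with vehicle. Its mean with PGE2 was 45.2% of that with vehicle. It averaged under 1 FPKM and was therefore not among the 12113 tested genes. With no filter on level its log2 change was -0.35 (SE 0.10, unadjusted p = 0.0152, adjusted p = 0.34 with limma over all genes with any signal), and with the block it was at adjusted p = 0.33. The annotated entry held 30.3% to 84.2% of the assembled loci; summed over those, Nr1d1 averaged 0.603 ± 0.263 FPKM with PGE2 and 1.36 ± 0.460 FPKM with vehicle (SD, n = 3 each), still without overlap. The end of Nr1d1 overlaps that of Thra on the opposite strand over 1075 bases; the mean of Thra was 3.91 FPKM with PGE2 and 3.85 FPKM with vehicle. Nr1d2 (ENSMUSG00000021775.10, chr14:18204054-18239127) had 3.21, 3.40 and 2.64 FPKM with PGE2, against 3.85, 4.54 and 3.65 FPKM with vehicle. Its log2 change was -0.30 (SE 0.12, 95% interval -0.59 to -0.01, adjusted p = 0.37), and -0.33 in coverage.

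Of the D-box factors, the activator Dbp was lower with PGE2 and the repressor Nfil3 higher within each replicate number. Dbp (ENSMUSG00000059824.11, chr7:45705247-45710203) had 7.02, 8.02 and 6.70 FPKM with PGE2, against 11.2, 11.6 and 8.74 FPKM with vehicle. The groups of Dbp did not overlap, and the lowest library of each group was replicate 3. The log2 change was -0.48 (SE 0.13, 0.719-fold, 95% interval -0.77 to -0.18), with adjusted p = 0.16 without and 0.0486 with the replicate block. That call was lost with the block when replicate number 1 (adjusted p = 0.060), 2 (0.22) or 3 (0.079) was left out, and with the block and no filter on level (0.27), while coverage with the block kept it (0.030). Only 2.58% of tested genes had a log2 change at or below that of Dbp. The end of Dbp overlaps Sphk2 on the opposite strand over 741 bases; Sphk2 averaged 11.7 FPKM with PGE2 and 11.01 FPKM with vehicle. Summed over assembled loci, Dbp averaged 6.86 ± 0.162 FPKM with PGE2 and 10.2 ± 2.17 FPKM with vehicle, also without overlap. Whether the authors' program used the strand is not given in the sources used here.

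Nfil3 (ENSMUSG00000056749.7, chr13:52967209-52981073) had 33.3, 31.2 and 26.4 FPKM with PGE2, against 27.6, 26.0 and 21.9 FPKM with vehicle. Its groups overlapped only through PGE2 replicate 3, which was below vehicle replicate 1. Within replicate numbers 1, 2 and 3 the log2 difference was 0.261, 0.258 and 0.259, a range far below the spread of either group. The log2 change was 0.26 (SE 0.12, adjusted p = 0.44 with limma), with SE 0.07 and adjusted p = 0.11 with the block. Bhlhe40 (ENSMUSG00000030103.11, chr6:108660629-108666925), an E-box repressor also called DEC1, had 66.5, 51.9 and 49.5 FPKM with PGE2, against 58.7, 47.1 and 40.1 FPKM with vehicle. The groups overlapped broadly, with PGE2 the higher of each same-numbered pair (log2 change 0.20, SE 0.17, adjusted p = 0.68; SE 0.07 and adjusted p = 0.20 with the block).

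Ratios of FPKM + 1 within a library set opposed or related factors against each other. The added 1 shrinks the ratios, most for low genes, and keeps the library's own scale from cancelling fully. Of 8 pairs laid out, 5 had both genes among the tested ones. The log2 ratio of Dbp to Nfil3 was -2.10, -1.84 and -1.83 in the PGE2 libraries, against -1.23, -1.09 and -1.24 in the vehicle libraries. The groups lay well apart, with a difference of -0.74. By FPKM without the added 1 there was 0.211 to 0.257 Dbp per Nfil3 with PGE2 and 0.399 to 0.448 with vehicle. The log2 ratio of Per1 to Per2 was 2.22, 1.84 and 1.96 with PGE2, against 1.42, 1.57 and 0.933 with vehicle, a difference of 0.70 with no overlap. Summed over assembled loci the difference was -0.75 for Dbp over Nfil3 but 0.075 for Per1 over Per2, so the Per1 to Per2 ratio carries the uncertainty of Per2. In a two-sided exact permutation test each of these 2 ratios gave p = 0.1, the smallest that 3 against 3 libraries allow, and 0.25 after adjustment over the 5 pairs. The ratio of Cry1 to Cry2 was higher by 0.24 with PGE2 and its groups overlapped (exact p = 0.2). Per1 over Per3 and Per1 over Arntl overlapped widely (exact p = 0.5 each).

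**Figure D3:**
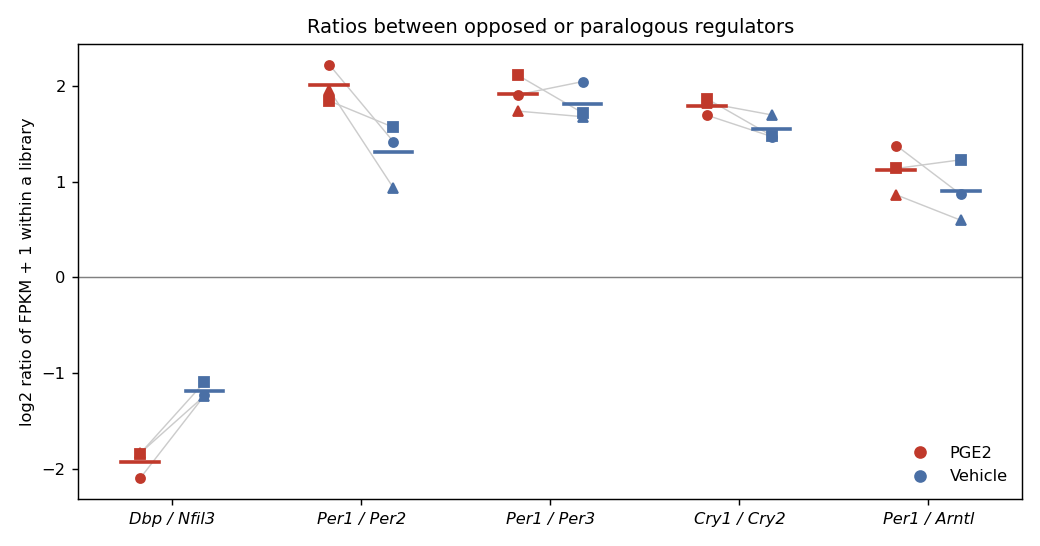
Log2 ratio of FPKM + 1 between the genes of 5 pairs (y axis), computed within each library; symbols mark replicate numbers 1 (circle), 2 (square) and 3 (triangle), bars give group means, and grey lines join same-numbered libraries, with PGE2 left of vehicle. The ratios of Dbp to Nfil3 lie at or under -1.83 with PGE2 and at or above -1.24 with vehicle, and those of Per1 to Per2 at or above 1.84 with PGE2 and at or under 1.57 with vehicle; the other 3 pairs overlap.

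The tested genes nearest to Dbp in pattern were Polr3d, a subunit of RNA polymerase III, Snhg12, a small nucleolar RNA host gene, and Gaa, the lysosomal alpha-glucosidase. Likeness was the root mean square difference of centred log2(FPKM + 1) over the 6 libraries. It was 0.034 for Polr3d, 0.036 for Snhg12 and 0.054 for Gaa, beside a median of 0.30 for the genes searched. The search left out the 10 and genes with only a Gm, Rik or Ensembl name. Polr3d had 5.22, 5.71 and 4.79 FPKM with PGE2, against 8.32, 8.17 and 6.55 FPKM with vehicle, and its adjusted p with limma was 0.14 without and 0.0495 with the block. With the block Snhg12 was at adjusted p = 0.055 and Gaa at 0.068, neither past the threshold. Since these genes were picked by likeness to Dbp in the same libraries, their p-values follow that of Dbp and add no support to it.

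The other genes of the clock machinery were taken from a list of 26 activators, kinases, ubiquitin ligase subunits and cofactors, of which 18 were tested. By limma 0 rose and 0 fell, with or without the block, against 0.809% of all tested genes called without it and 3.26% with it. At an unadjusted p under 0.05, 0 of the 18 were higher, against 5.46% of all tested genes, and 2 lower (Tef and Wdr5), against 7.59%. Neither activator passed the test. Arntl had 3.13, 3.39 and 2.89 FPKM with PGE2, against 3.31, 2.74 and 2.65 FPKM with vehicle (log2 change 0.09, SE 0.11, adjusted p = 0.84). Clock had 2.67, 1.26 and 1.12 FPKM with PGE2, against 2.02, 1.903 and 1.59 FPKM with vehicle, which overlapped (log2 change -0.12, SE 0.22, adjusted p = 0.89). That change was -0.37 without PGE2 replicate 1 and 0.025 without PGE2 replicate 3. Tef, the PAR-bZIP relative of Dbp, had 5.22, 5.12 and 4.39 FPKM with PGE2, against 6.23, 6.23 and 5.87 FPKM with vehicle. The groups of Tef did not overlap, with a log2 change of -0.27 (SE 0.10, adjusted p = 0.31). Ciart, an E-box target whose protein represses the BMAL1 and CLOCK pair, had 3.24, 3.40 and 2.82 FPKM with PGE2, against 4.48, 4.74 and 2.92 FPKM with vehicle. It was lower in each same-numbered pair, and the groups overlapped (log2 change -0.26, SE 0.16, adjusted p = 0.57). Wdr5, a histone methyltransferase subunit found with PER proteins, averaged 15.6 ± 0.309 FPKM with PGE2 and 19.2 ± 0.844 FPKM with vehicle (log2 change -0.28, SE 0.08, adjusted p = 0.17). The third PAR-bZIP gene, Hlf, and the Bhlhe40 paralog Bhlhe41 were under 0.1 FPKM in every library, as was Rorb, while Rora ranged from 0.0915 to 1.66 FPKM with PGE2 and from 0.1555 to 1.39 FPKM with vehicle.

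Of 10 genes listed as outputs of the clock, 8 were tested. By limma 0 rose and 0 fell, against 0.809% of all tested genes called in either direction. The median log2 change of the 8 was -0.26 beside -0.03 for all tested genes, with 6 below 0 and 2 above it. At an unadjusted p under 0.05, 1 of the 8 was higher (Nampt), against 5.46% of all tested genes, and 2 were lower (Tspan4 and Klf10), against 7.59%; these 3 were picked out after their values were seen. Klf10, a TGF-β-inducible zinc finger factor, had 6.55, 5.44 and 5.81 FPKM with PGE2, against 9.19, 6.52 and 8.90 FPKM with vehicle, and only PGE2 replicate 1 reached into the vehicle range (log2 change -0.40, SE 0.14, adjusted p = 0.28). Nampt, the rate-limiting enzyme of NAD salvage, averaged 50.5 ± 1.06 FPKM with PGE2 and 42.9 ± 4.42 FPKM with vehicle (log2 change 0.24, SE 0.09, adjusted p = 0.35). The log2 change of Tspan4, a tetraspanin, was -0.96 in FPKM (adjusted p = 0.19 by limma) and -0.17 in coverage (adjusted p = 0.31). The 1 added before taking logs shrinks the change in coverage. Scaled coverage of Tspan4 averaged 0.208 with PGE2 and 0.359 with vehicle, without overlap. In FPKM Tspan4 passed as lower with the block when replicate number 3 was left out (-1.42, adjusted p = 0.029).

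**Figure D4:**
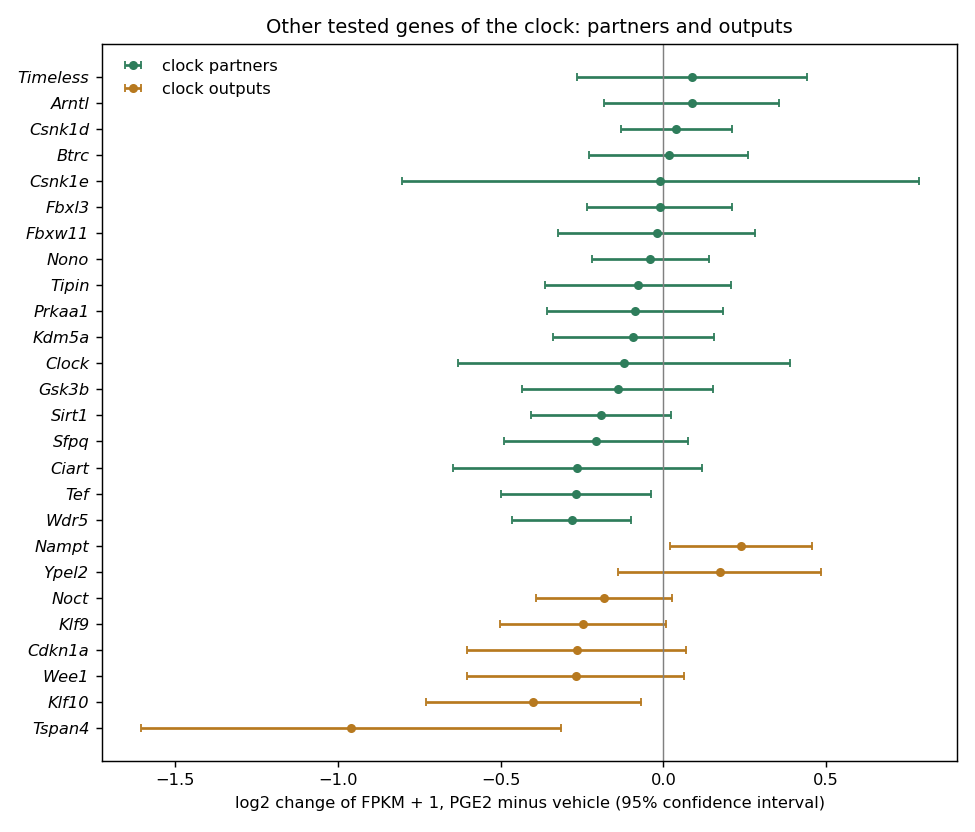
Log2 change of FPKM + 1, PGE2 minus vehicle (x axis), with unadjusted 95% confidence intervals from limma, for the 18 tested partners and 8 tested outputs of the clock. Intervals of Tef, Wdr5, Klf10, Tspan4 and Nampt leave out 0, and none of the 26 genes passed after adjustment over all tested genes.

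Genes known to answer cAMP through CREB give a scale for the size of these differences. Their list was chosen with earlier results of these data known, so counts from it are no independent support. Of 18 tested members of that list 4 rose and 0 fell by limma (Crem, Nr4a3, Fosl2 and Rgs2), against 0.809% of all tested genes called in either direction. With the replicate block 7 rose and 0 fell, with Fos, Sik1 and Pde4d added, against 3.26%. In coverage the log2 change of Pde4d was 0.12, against 0.99 in FPKM, and it did not pass with the block (adjusted p = 0.15 by limma). The scaled coverage of Pde4d was far below the 1 added before taking logs, which shrinks that change. Its mean was 0.182 with PGE2 and 0.0869 with vehicle, and every PGE2 library was above every vehicle library. Egr2 of the same list averaged 1.17 ± 0.401 FPKM with PGE2 and 2.43 ± 0.891 FPKM with vehicle (log2 change -0.64, adjusted p = 0.30), and passed as lower with the block in coverage (adjusted p = 0.023); both genes were picked out after their values were seen. Crem, which encodes CREM and the repressor ICER, had 184, 171 and 213 FPKM with PGE2, against 65.4, 50.7 and 51.4 FPKM with vehicle, a log2 change of 1.75 (SE 0.13, adjusted p = 0.0027). Over the 18 genes the log2 change had a median of 0.44, with 16 above 0 and 2 below it. Rgs2, at a log2 change of 0.93, missed the threshold when any 1 library but vehicle replicate 3 was left out (adjusted p = 0.053 to 0.16) and with no filter on level (0.13). With the block and no filter all 4 missed it (adjusted p = 0.21 to 0.26).

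Part of the spread went with the replicate number. Of the 9 tested genes, 7 were lowest in replicate 3 in both groups (Per1, Per2, Per3, Nr1d2, Dbp, Nfil3 and Bhlhe40), as were 26.5% of all tested genes. For Per2 and Per3 this holds for the annotated entry alone. Summed over assembled loci, Per3 was highest in replicate 3 of both groups, at 3.75 FPKM with PGE2 and 3.48 FPKM with vehicle. Per2 summed in this way was lowest in PGE2 replicate 2 (1.76 FPKM) and vehicle replicate 1 (1.95 FPKM). Replicate 3 was also the shallowest library of each group, at 4.54 gigabases of fragments with PGE2 and 3.996 with vehicle, where the others had 5.05 to 5.45. The immediate early genes Fos and Egr1, picked out after their values were seen, were lowest in replicate 3 as well. Fos had 18.9, 13.1 and 8.22 FPKM with PGE2, against 11.1, 9.24 and 4.32 FPKM with vehicle, and Egr1 had 8.41, 5.31 and 1.73 FPKM with PGE2, against 6.14, 5.72 and 1.75 FPKM with vehicle. The part of depth or of early gene activity in the levels of the clock genes was not tested.

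The sorted cells carried the transcripts their label names. Foxp3 had 91.1 to 136 FPKM with PGE2 and 75.4 to 101.4 FPKM with vehicle, and all 7 markers each of regulatory T cells and of T cells in general averaged at least 1 FPKM, led by Il2ra and Trbc2. The summed Treg markers were 1877 to 1927 FPKM with PGE2 and 1460 to 1549 FPKM with vehicle, and the summed T cell markers 2431 to 2713 FPKM with PGE2 and 2230 to 2400 FPKM with vehicle. The Treg sum does not stand for the whole list, since 4 of its 7 log2 changes were above 0 and 3 below. Ctla4, an inhibitory receptor, rose to 345 ± 5.93 FPKM with PGE2, against 199 ± 7.14 FPKM with vehicle (adjusted p = 0.0076 by limma). Tnfrsf18, which encodes GITR, had 707 ± 42.3 FPKM with PGE2 and 412 ± 70.4 FPKM with vehicle (adjusted p = 0.056 without and 0.033 with the block), while Il2ra had 639.8 ± 27.6 FPKM with PGE2 and 691 ± 59.6 FPKM with vehicle. Of 6 B cell markers 2 averaged at least 1 FPKM, Ighm and Cd79b, and the list summed to 85.2 to 123 FPKM with PGE2 and 130.1 to 228 FPKM with vehicle. Ighm, the IgM heavy chain gene, had 119, 106 and 81.0 FPKM with PGE2, against 223, 187 and 126 FPKM with vehicle (log2 change -0.78, adjusted p = 0.20 by limma without and 0.010 with the block). Every PGE2 library was below every vehicle library for Ighm, as for Dbp, Cry2 and both Nr1d genes and for 11.9% of all tested genes. The B cell defining genes Ms4a1 and Pax5 were under 0.1 FPKM in each library. Of 6 CD8 and NK markers 2 averaged at least 1 FPKM, Cd8b1 and Klrd1, with sums of 9.32 to 12.02 FPKM with PGE2 and 6.87 to 8.58 FPKM with vehicle, and Ncr1 and Klrb1c were at 0 in all libraries. Klrd1 averaged 3.10 ± 1.22 FPKM with PGE2 and 1.46 ± 1.16 FPKM with vehicle (log2 change 0.80, adjusted p = 0.38 by limma without and 0.033 with the block). Of 7 myeloid markers only Cd68 averaged at least 1 FPKM, and the list summed to 2.77 to 4.45 FPKM with PGE2 and 1.87 to 5.53 FPKM with vehicle. The 4 erythroid markers, led by Hba-a1, summed to at most 1.25 FPKM with PGE2 and 0.960 FPKM with vehicle. The part of such cells in the results was not tested, and in bulk RNA fewer cells of a kind and less RNA per cell cannot be told apart.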

How the data were processed

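RNA of 6 libraries was made with a stranded kit for polyadenylated mRNA, per the labels' protocols. Trim Galore and HISAT2 on mm10 were used, per the submitters' processing notes; neither their versions nor the annotation and counting program could be taken from the sources used here. Per the file headers, the tables give FPKM, scaled for library and transcript length before deposit, and coverage, a signal of mean read depth. Per the file headers there is also TPM, read as a score and left unused, because loci are listed under both an annotated and an assembled entry. Whole reads were not recovered, as the values rest on coverage. Depth is the median ratio of coverage to FPKM over 1860 single-transcript genes, and 97.6% to 98.1% of these lay within 1% of it; no counting interval was computed. Only annotated entries were used, and an ID listed more than once was summed. Loci assembled over a member on its strand were summed as an added check.

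Tests took every gene averaging 1 FPKM or more and ran on log2(FPKM + 1) by limma 3.58.1 in R 4.3.3 with a variance trend, all 6 libraries and Benjamini-Hochberg adjustment over 12113 genes, two-sided at 0.05. The procedure was tested on simulated data. Deviations from group means correlated at 0.227, 0.312 and 0.529 for same-numbered libraries 1, 2 and 3, so the numbers from the titles were taken as pairs, although PGE2 replicate 1 correlated with vehicle replicate 2 at 0.271. The 10 genes and all lists were chosen with earlier results of these data known. Named genes are the 10, called or tested clock genes, up to 4 called CREB-driven genes, leading markers and the 3 genes most like the member with the smallest p. Figures were drawn with matplotlib 3.10.9.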

Additional observations from a re-analysis of the deposited data

How the results depend on the processing

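Of the 9 tested clock genes, 8 kept their direction under every alternative run on them (23 or 24 each). The exception, Per2, turned to 0.14 when its assembled loci were summed, which also moved Per1 over Per2 to 0.075. Dbp, at a log2 change of -0.48, passed the threshold with the replicate block, both in FPKM and in coverage (adjusted p = 0.0486 and 0.030), so that 1 clock gene was called lower in these fits and 0 in the others; its change was -0.59 to -0.41 when 1 library was left out. The block changed no other call among the clock genes and their partners. Without 1 library the change of Per1 ranged from 0.12 to 0.49, of Per2 from -0.52 to -0.24, of Per3 from 0.08 to 0.40, of Bhlhe40 from 0.08 to 0.35 and of Nfil3 from 0.17 to 0.35. Clock, at -0.37 to 0.025 without 1 library, turned without PGE2 replicate 3, and the difference of Per1 over Per3 to -0.02 with a pseudocount of 0.1 and -0.03 in coverage; the cause was not tested.

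Over all tested genes 69 rose and 29 fell. The counts were 33 and 12 with no filter, 112 and 47 in coverage, 115 and 59 over protein-coding genes alone, 215 and 180 with the replicate block, 325 and 310 with the block in coverage, and 0 and 1 with the block and no filter. Without the variance trend 16 fell. Leaving out 1 library gave 16 to 53 rises and 4 to 16 falls, and leaving out replicate number 1, 2 or 3 with the block gave 524, 105 or 75 rises and 439, 46 or 40 falls. The sums over assembled loci and the fits with the block in coverage, without filter or without a replicate number were chosen after seeing the data. Fragment depth is known only as a ratio, so counting error at the level of Nr1d1, Per2 and Per3 cannot be given.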
